A study of Danio rerio with 11 samples.

Results

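The interferon response genes described here are stat1a, stat1b, stat2, irf9, irf7, isg15, rsad2 and mxa, taken by symbol from a table of whole-brain RNA levels in adult zebrafish. All 8 symbols were found, each in 1 row, among 16536 listed genes, and all 8 had passed the submitters' filter on low values. The study compared brains with and without working copies of csf1ra and csf1rb, a pair of genes for the receptor of colony-stimulating factor 1, on which microglia and other macrophages depend. There were 2 control libraries (wild type) and 3 libraries each of csf1ra-/-, csf1ra-/-;b+/- and csf1ra-/-;b-/- brains. These are named below, in that order, as single mutants, csf1rb-heterozygous mutants and double mutants. Fish of every group, controls included, were about 8 months old, of TLF x AB background and of the mpeg1-GFP line, in which macrophages and microglia are marked. All mutant groups are labelled csf1ra-/-, and no group is labelled mutant for csf1rb alone. Brains were treated with trypsin on ice before freezing, and the labels do not say whether the libraries of a group came from separate fish.

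Interferons are secreted proteins that alarm cells to infection. In mammals they bind receptors whose JAK kinases phosphorylate transcription factors of the STAT family, which join IRF9 in a complex that switches on many antiviral genes, while IRF7 switches on further interferon genes. isg15 encodes a ubiquitin-like protein that is attached to other proteins, rsad2 encodes the antiviral enzyme viperin, and mxa encodes a GTPase of the Mx family that acts against viruses. Fish have the same circuit, with duplicated genes such as stat1a and stat1b, and in the brain microglia are among the cells that respond to interferon.

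The libraries held 12.8 to 15.3 M reads, so that 1 CPM (the unit of the table, reads scaled to library size) stood for 12.3 to 15.7 reads. csf1ra was at 9.66 and 7.33 CPM in controls, at 1.62, 0.952 and 5.096 CPM in single mutants, at 0.584 to 0.976 CPM in csf1rb-heterozygous mutants, with 0 to 0.602 CPM for double mutants. csf1rb was at 21.6 and 13.6 CPM in controls, 8.42 to 14.4 CPM in single mutants, 1.604 to 3.83 CPM in csf1rb-heterozygous mutants and 1.97 to 2.52 CPM in double mutants. Neuron markers summed to 7303 to 8903 CPM over all libraries and radial glia markers to 4734 to 6276 CPM, as a brain sample should give. stat1a and stat1b are related copies, as are mxa and the other mx genes, and 50-nucleotide reads may not tell such copies apart, so their levels are uncertain in that respect.

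A pair of libraries stood apart from the rest of their groups for the interferon genes. Control replicate 1 was the highest of 11 libraries for 6 of the 8 genes and among the 2 highest for 8 of 8, against 9.88% and 20.1% of all genes. Single mutant replicate 3 was the highest for the other genes, stat1b and stat2, and among the 3 highest for 6 of 8. Over all genes it was the highest for 7.01% and among the 3 highest for 24.6%. The csf1ra level of the library labelled single mutant replicate 3, 5.096 CPM, stood above the other mutants and below both controls, and the labels do not say whether the mutation lowers this RNA, so its genotype is taken from the label alone. Against the mean of the control libraries on the log2(CPM + 1) scale, the median of the 8 genes was 0.57 and -0.57 in the controls and -1.14, -1.50 and -0.22 in single mutants. The csf1rb-heterozygous mutants had medians of -1.12, -0.85 and -1.65, and the double mutants had -1.28, -1.55 and -0.89. Every mutant library except single mutant replicate 3 was thus below both controls. The median log2(CPM + 1) level of the 8 genes, without the control mean subtracted, had a pooled SD of 0.64 within groups. The SD of the differences listed here was not computed. Beside the estimates below, values without these libraries are given where they differ by more than 1.5 times.

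**Figure D1:**
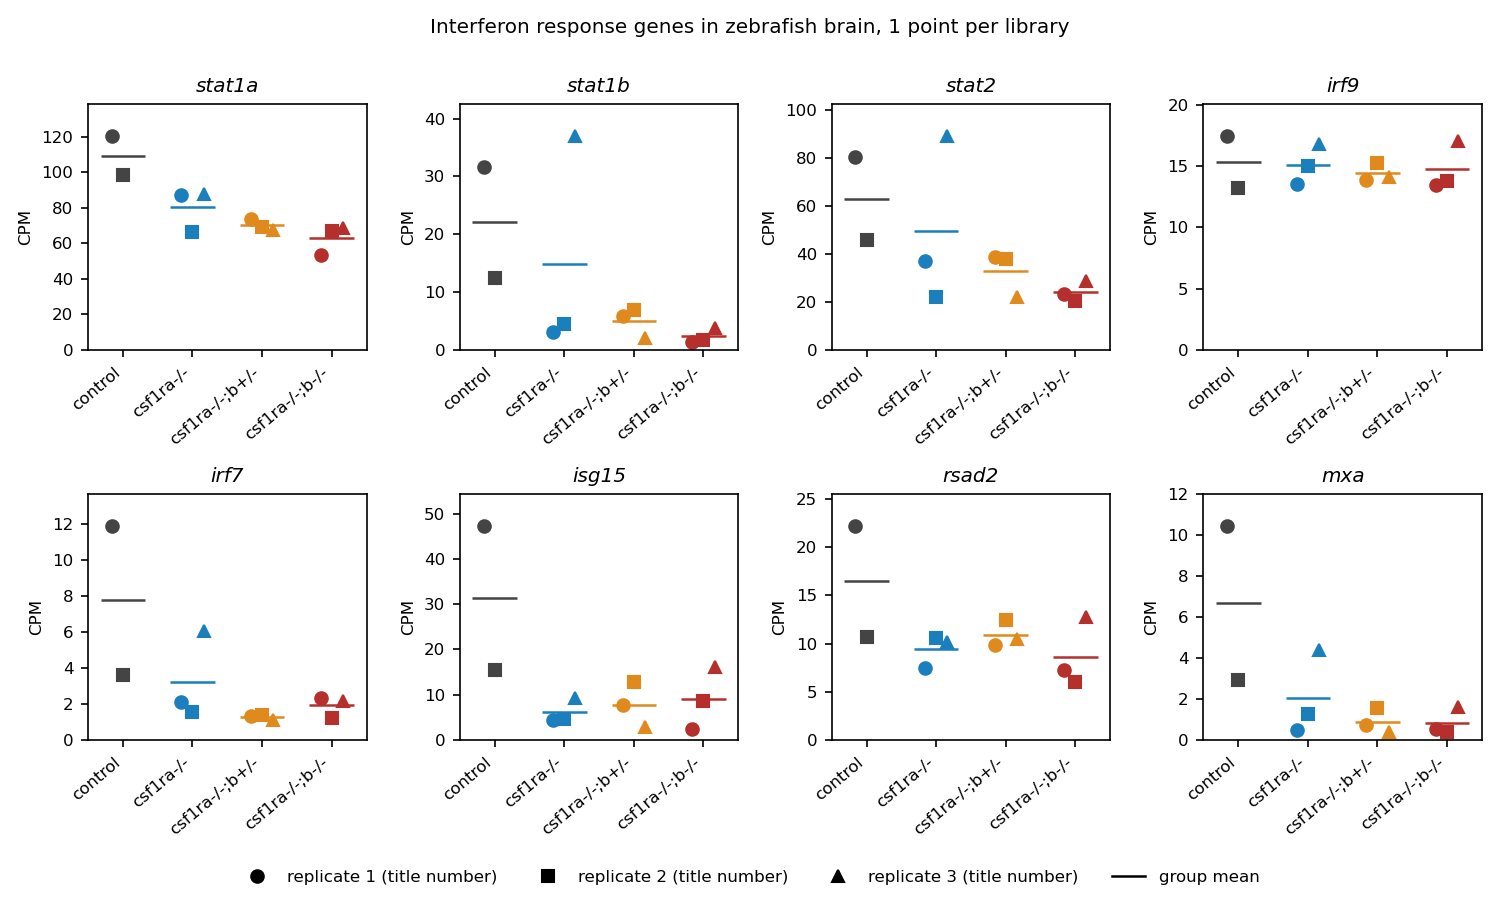
CPM of the 8 interferon response genes (vertical axes, 1 panel per gene) in each of the 11 libraries, grouped by genotype, with bars at group means. Control replicate 1 is the highest library in 6 panels, and single mutant replicate 3 in those of stat1b and stat2.

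Of the genes of the STAT and IRF9 complex, stat1a was the only one to pass the test against control. stat1a (ENSDARG00000006266), a transcription factor gene of the STAT family, was at 120.5 and 98.5 CPM in controls, at 87.2, 66.1 and 87.6 CPM in single mutants, at 73.6, 69.1 and 67.4 CPM in csf1rb-heterozygous mutants, with 53.4, 66.8 and 68.4 CPM for double mutants. All 9 mutant libraries were below both controls, while the ranges of the mutant groups overlapped. The share of all genes with all 9 below both controls was not computed. The means fell from 109.5 ± 15.5 CPM (SD, n = 2) in controls to 62.9 ± 8.24 CPM (SD, n = 3) in double mutants. That difference was -0.79 on the log2 scale (SE 0.151, 95% interval -1.12 to -0.46), which passed the test (limma, adjusted p = 0.0309). The call was lost when control replicate 1 (adjusted p = 0.201), control replicate 2 (0.0578), double mutant replicate 1 (0.0948) or double mutant replicate 2 (0.0609) was left out, with adjusted p again from limma, and the difference then ranged from -0.94 to -0.65. In the csf1rb-heterozygous mutants stat1a was at 70.04 ± 3.23 CPM (SD, n = 3), a log2 difference of -0.63 (limma, adjusted p = 0.0851), and in single mutants at 80.3 ± 12.3 CPM (SD, n = 3), a difference of -0.45 (0.280).

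stat1b (ENSDARG00000076182), also of the STAT family, was at 31.7 and 12.5 CPM in controls and at 3.08, 4.39 and 37.0 CPM in single mutants. It was at 5.92, 6.90 and 1.95 CPM in csf1rb-heterozygous mutants, with 1.33, 1.73 and 3.82 CPM for double mutants. Single mutant replicate 3 was the highest library of all, 9.89 times the mean of the other single mutants and 1.67 times the control mean. Both groups with a csf1rb mutation lay below both controls, and the single mutants spanned the control range. The log2 difference from control was -2.75 in double mutants, -1.95 in csf1rb-heterozygous mutants and -1.16 in single mutants, each with an SE of 0.812, and none passed the test (limma, adjusted p = 0.138, 0.280 and 0.617). In single mutants the difference was -0.52 without control replicate 1 and -2.16 without single mutant replicate 3. Single mutant replicate 3 enters the double mutant comparison through the spread shared by all groups, and without it stat1b passed the test there (-2.75; limma, adjusted p = 0.032).

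stat2 (ENSDARG00000031647), a further STAT family gene, had the same order of groups. It was at 80.5 and 45.6 CPM in controls, 37.1, 22.1 and 89.2 CPM in single mutants, 38.7, 37.7 and 21.98 CPM in csf1rb-heterozygous mutants, and 23.2, 20.3 and 28.6 CPM in double mutants. Single mutant replicate 3 was again the highest library, and the other 8 mutant libraries lay below both controls. The double mutants differed from control by -1.31 on the log2 scale (SE 0.461; limma, adjusted p = 0.203), which did not pass the test. The csf1rb-heterozygous mutants differed by -0.91 (0.366), and by -0.51 without control replicate 1. The single mutants differed by -0.52 (0.701), by -0.12 without control replicate 1 and by -1.05 without single mutant replicate 3.

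irf9 (ENSDARG00000016457), the DNA-binding partner of the STAT proteins, was at 17.5 and 13.3 CPM in controls, 13.6, 15.0 and 16.8 CPM in single mutants, 13.9, 15.3 and 14.1 CPM in csf1rb-heterozygous mutants and 13.5, 13.8 and 17.1 CPM in double mutants. The ranges of all 4 groups overlapped, and the highest library was 1.32 times the lowest, the smallest such ratio of the 8 genes. The 95% intervals of the log2 differences from control were -0.37 to 0.34 in single mutants, -0.43 to 0.28 in csf1rb-heterozygous mutants and -0.40 to 0.30 in double mutants. The estimates, -0.02, -0.07 and -0.05, came to 0.17, 0.11 and 0.14 without control replicate 1, and that of single mutants to -0.0894 without single mutant replicate 3.

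irf7 (ENSDARG00000045661), known from mammals as a switch for interferon genes, was at 11.9 and 3.63 CPM in controls, 2.11, 1.54 and 6.04 CPM in single mutants, 1.32, 1.39 and 1.102 CPM in csf1rb-heterozygous mutants and 2.35, 1.22 and 2.14 CPM in double mutants. All csf1rb-heterozygous and double mutant libraries lay below both controls, and single mutant replicate 3 lay between the controls. The log2 difference from control was -1.77 in csf1rb-heterozygous mutants, -1.43 in double mutants and -1.02 in single mutants, each with an SE of 0.461. None of these passed the test (limma, adjusted p = 0.110, 0.168 and 0.435). Without control replicate 1 they were -1.03, -0.69 and -0.28.

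Of the antiviral effectors, isg15 had its lowest mean in single mutants and rsad2 and mxa in double mutants. isg15 (ENSDARG00000086374) was at 47.3 and 15.5 CPM in controls, 4.38, 4.61 and 9.17 CPM in single mutants, 7.59, 12.8 and 2.79 CPM in csf1rb-heterozygous mutants, and 2.29, 8.55 and 16.1 CPM in double mutants. Single and csf1rb-heterozygous mutants lay below both controls, and double mutant replicate 3 lay above control replicate 2. The log2 differences were -2.07 in single mutants, -1.88 in csf1rb-heterozygous mutants and -1.80 in double mutants, each with an SE of 0.696 (limma, adjusted p = 0.280, 0.233 and 0.24). Without control replicate 1 they were -1.29, -1.11 and -1.02.

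rsad2 (ENSDARG00000004952) was at 22.2 and 10.7 CPM in controls, 7.46, 10.6 and 10.2 CPM in single mutants, 9.88, 12.4 and 10.5 CPM in csf1rb-heterozygous mutants and 7.24, 5.97 and 12.7 CPM in double mutants. Only the single mutants lay below both controls, by a narrow margin to control replicate 2. Its log2 differences from control were -0.68, -0.47 and -0.84 in the same order of groups, each with an SE of 0.318 (limma, adjusted p = 0.454, 0.494 and 0.233). Without control replicate 1 they were -0.18, 0.0198 and -0.34, so that of csf1rb-heterozygous mutants changed sign.

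mxa (ENSDARG00000021688) was the member with the fewest reads, 355 over all libraries. It was at 10.4 and 2.93 CPM in controls, 0.487, 1.25 and 4.37 CPM in single mutants, 0.696, 1.53 and 0.389 CPM in csf1rb-heterozygous mutants and 0.508, 0.359 and 1.61 CPM in double mutants. The latter groups lay below both controls, and single mutant replicate 3 lay between the controls. The log2 difference was -1.94 in double mutants, -1.89 in csf1rb-heterozygous mutants and -1.36 in single mutants, each with an SE of 0.561 (limma, adjusted p = 0.130, 0.151 and 0.395). Without control replicate 1 they were -1.17, -1.12 and -0.59. The log2(CPM + 1) scale understates changes of a gene at this level.

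The group means of the 8 genes had control first in every case. Of the 24 pairs of neighbours in these orders, 23 had overlapping values, and the exception was control above single mutant for stat1a. Single mutants lay wholly below control for 13.7% of all genes. Neighbours were set by the means of these same data, and the share of overlapping neighbours over all genes was not computed. stat1b, stat2 and mxa shared stat1a's order of control, single, csf1rb-heterozygous and double mutant. irf9 and irf7 had csf1rb-heterozygous mutants last, isg15 had single mutants last and rsad2 double mutants.

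Compared with control, 1 of the 8 genes, stat1a, fell in double mutants and none passed the test in single or csf1rb-heterozygous mutants. Over all genes, 1.16% were called in double mutants (0.798% lower), 0.671% in csf1rb-heterozygous mutants (0.405% lower) and 0.472% in single mutants (0.175% lower). The estimate was below 0 for 8 of 8 genes in each of the 3 mutant groups, against 48.0%, 49.8% and 49.1% of all genes in the same order. These 3 comparisons share the 2 control libraries. The members' median log2 difference was -1.37 in double mutants, -1.34 in csf1rb-heterozygous mutants and -0.85 in single mutants, where the median of all genes was 0.01, 0.00 and 0.01. At an unadjusted p under 0.05 (limma), 7, 5 and 4 of the 8 genes passed, against 16.1%, 15.6% and 11.4% of all genes. Values of the mutant group lay wholly below control for 5 genes in double mutants, 6 in csf1rb-heterozygous mutants and 3 in single mutants, where 16.6%, 16.6% and 13.7% of all genes did so.

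The controls differed from each other by more than the difference from control for most of the genes in single mutants, and for fewer in the other mutants. Control replicate 1 exceeded control replicate 2 by 1.22 times for stat1a, 1.32 times for irf9, 1.77 times for stat2 and 2.07 times for rsad2. The ratio was 2.53 for stat1b, 3.05 for isg15, 3.28 for irf7 and 3.56 for mxa. On the log2(CPM + 1) scale this gap was larger than the difference from control for 6 of the 8 genes in single mutants, 2 in csf1rb-heterozygous mutants and 3 in double mutants. The gap is between single libraries, while the differences are between group means. Without control replicate 1 the members' median difference was -0.29 in single mutants, -0.77 in csf1rb-heterozygous mutants and -0.80 in double mutants. Without single mutant replicate 3 it was -1.26 in single mutants.

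**Figure D2:**
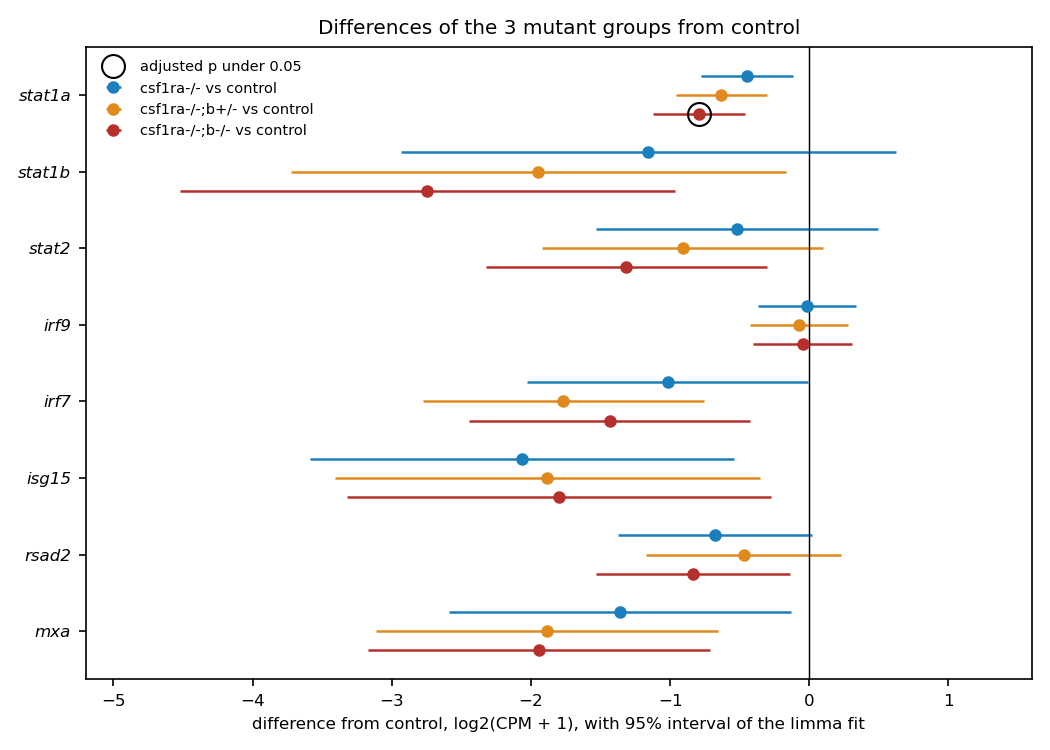
Log2 differences of each gene from control on the log2(CPM + 1) scale, with 95% limma intervals, for single, csf1rb-heterozygous and double mutants. All 24 estimates lie below 0, and the ringed point, stat1a in double mutants at -0.79, is the only call.

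The number in the sample descriptions gave a further split, since control replicate 1 carries number 1, control replicate 2 carries number 3 and no control carries number 2. The labels do not say what the number stands for, and these values have no test. Among libraries with number 1, the members' median log2 difference from control was -1.75 in the single mutant, -1.67 in the csf1rb-heterozygous mutant and -1.85 in the double mutant, with 8 of 8 genes below control each time. That count was fixed in advance, since only single mutant replicate 3, which carries number 3, exceeded control replicate 1 for any member. Among libraries with number 3, the members' median was 0.38 in the single mutant, with 3 of 8 genes below control. It was -1.08 in the csf1rb-heterozygous mutant, with 7 genes below, and -0.54 in the double mutant, with 5 genes below. The lower level in single mutants was therefore not seen within number 3. stat1a was below its control in all 6 of these pairs, by log2 differences from -1.16 to -0.17. For stat1a this follows from every mutant library being below both controls, as given above. The shares of all genes below control in these pairs were not computed.

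With the 3 mutant groups averaged against control, stat1a again was the 1 gene of 8 to pass the test, with a log2 difference of -0.62 (SE 0.129; limma, adjusted p = 0.0487) and 9 of 9 mutant libraries below both controls. Over all genes 0.986% were called and 0.538% were called lower, and the share with all 9 mutant libraries below both controls was not computed. That call stood close to the threshold. It was lost without either control (limma, adjusted p = 0.267 without replicate 1 and 0.127 without replicate 2), without single mutant replicate 3 (0.0567), and without any of the 3 csf1rb-heterozygous (0.063 to 0.0866) or 3 double mutant libraries (0.0558 to 0.0591). It was also lost with a pseudocount of 0.1 (0.0512), a filter at 2 CPM (0.0537) or no scaling of libraries (0.0574), again with limma, and under the replicate block by description number (0.0687). The members' median was -1.16, and -0.59 without control replicate 1. stat1b had the largest estimate, -1.95 (limma, adjusted p = 0.189), and passed the test only when single mutant replicate 3 was left out (-2.29, adjusted p = 0.0414).

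Between mutant groups none of the 8 genes passed the test. The double mutants differed from single mutants by a median of -0.38 log2 over the 8 genes, and the strongest result was stat1a at -0.35 (SE 0.135; limma, adjusted p = 0.332), where 0.943% of all genes were called. stat1b differed by -1.59 (limma, adjusted p = 0.441) and stat2 by -0.79 (0.515) in that comparison. Without single mutant replicate 3 the median was -0.0833, with stat1b at -0.59 and stat2 at -0.26. At an unadjusted p under 0.05, 2 of the 8 genes passed, against 11.3% of all genes. The csf1rb-heterozygous mutants differed from single mutants by a median of -0.29, and from double mutants the remaining difference was -0.11, double minus csf1rb-heterozygous mutant. No gene of the 8 had an unadjusted p under 0.05 (limma) in these last comparisons, against 6.28% and 5.22% of all genes. At an adjusted p under 0.05, 0.187% and 0.0847% of all genes were called there. Without single mutant replicate 3, the median difference of csf1rb-heterozygous from single mutants was 0.08. irf7 alone had values wholly lower in csf1rb-heterozygous than in single mutants, a pattern of 6.46% of all genes.

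In the authors' deposited table of comparisons, stat1a in double mutants against control had a log2 fold change of -0.80 and a false discovery rate of 0.028, the only value under 0.05 for the 8 genes in its 6 comparisons. The next lowest in the authors' deposited table was irf7 in csf1rb-heterozygous mutants, with a log2 fold change of -2.61 and a false discovery rate of 0.0779.

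The other genes of the pathway were taken from lists by role, in which 81 of 168 symbols had a listed gene. None of the 7 interferon ligand symbols was among the listed genes. Of these 81 genes none passed the test in single or csf1rb-heterozygous mutants against control, and 2 fell in double mutants. The shares of all genes called lower were 0.175%, 0.405% and 0.798% in the same order of groups. irf8, a transcription factor of macrophages and microglia that belongs to the interferon regulatory factors by family, was at 14.9 and 7.41 CPM in controls, 4.91 to 7.86 CPM in single mutants, 2.40 to 5.71 CPM in csf1rb-heterozygous mutants and 1.08 to 1.87 CPM in double mutants. It fell by 2.19 on the log2 scale in double mutants (SE 0.332; limma, adjusted p = 0.0098). ptpn6, a phosphatase of blood cells that restrains receptor signals, was at 14.0 and 6.87 CPM in controls and 0.575 to 2.29 CPM in double mutants, and fell by 2.22 (SE 0.352; limma, adjusted p = 0.0133). In the average of the 3 mutant groups irf8 was the 1 gene of the 81 to fall, by 1.38 (limma, adjusted p = 0.0482), where 0.538% of all genes were called lower. That call was lost in 10 of 11 cases with 1 library left out (limma, highest adjusted p 0.292) and kept in 3 of 9 other settings. In double mutants, without control replicate 1, neither call held (limma, adjusted p = 0.0985 for irf8 and 0.119 for ptpn6).

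Upstream of the STAT genes, none of the receptor, kinase or sensor genes passed the test against control. Of 18 symbols for interferon receptors and kinases, 8 were listed, 5 of which were below control in each mutant group, with a median between -0.19 and -0.16. The share of all genes below control was 48.0% to 49.8% in these groups. jak1, a kinase bound to interferon receptors, was at 67.5 and 71.1 CPM in controls and 50.6 to 68.3 CPM in the 9 mutant libraries. The receptor chain gene crfb6 was at 84.4 and 74.8 CPM in controls and 37.9 to 74.0 CPM in mutants, all 9 below both controls. Of 26 symbols for sensors of foreign nucleic acid and their adaptors, 12 were listed, with medians of -0.01 in single mutants, -0.20 in csf1rb-heterozygous mutants and -0.24 in double mutants. Among them trim25, a ubiquitin ligase of the RNA sensor pathway, was at 109 and 97.7 CPM in controls and 71.1 to 85.6 CPM in mutants. Its differences did not pass the test (lowest adjusted p with limma 0.0704, in double mutants). For trim25 too all 9 mutant libraries lay below both controls, and the share of all genes doing so was not computed. dhx58 of this list, whose values are given below for its likeness to the 8 genes, differed from control by -1.995 in double mutants (limma, adjusted p = 0.146). tbk1, the kinase that activates IRF proteins, was at 98.0 and 121 CPM in controls and 93.3 to 122 CPM in mutants.

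Further interferon-stimulated genes were lower by estimate in most cases, without calls against control. Of 64 symbols, 27 were listed, and 22 were below control in single mutants, 24 in csf1rb-heterozygous mutants and 23 in double mutants, with medians of -0.33, -0.66 and -0.49. Of all genes, 49.1%, 49.8% and 48.0% were below control in the same order. Control replicate 1 was the highest library for 16 of these 27 genes, against 9.88% of all genes. Single mutant replicate 3 was among the 2 highest for 19 of 27, against 15.4% of all genes. Medians of this list without control replicate 1 are not given here. mxc, another Mx gene, was at 6.64 and 2.08 CPM in controls, 1.30, 0.879 and 4.59 CPM in single mutants, and 0.216 to 0.381 CPM in the 6 libraries with a csf1rb mutation. Those 6 libraries were all lower than every other library, and the difference of double mutants from control was -1.89 (limma, adjusted p = 0.0702). mxc passed the submitters' filter on low values only through libraries without a csf1rb mutation. The share of all genes split in this way was not computed. rnf213a, the gene of a large ubiquitin ligase, was at 97.5 and 42.7 CPM in controls and 23.4 to 49.1 CPM in mutants. mxc and rnf213a were chosen after their values were seen.

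The genes of the immunoproteasome and of peptide loading, which prepare peptides for display to T cells, had 16 of 21 symbols listed and 11, 15 and 12 of them below control in single, csf1rb-heterozygous and double mutants. Their medians were -0.07, -0.57 and -0.50, and none passed the test. The shares of all genes below control were 49.1%, 49.8% and 48.0% in the same order of groups. The light chain genes of MHC class I led by level, with b2ml at 363 and 288 CPM in controls and 191 to 380 CPM in mutants, and b2m at 186 and 89.1 CPM in controls and 73.5 to 163 CPM in mutants. The median of the 10 listed feedback inhibitors was -0.04, -0.12 and 0.00 in the same order of groups. The other IRF genes, 4 of 12 symbols, had medians of -0.20, -0.39 and -0.45, and the other STAT genes, 4 of 7, of -0.18, -0.38 and -0.31.

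Between mutants, 4 of the 81 genes passed the test, all in double against single mutants, where 0.943% of all genes were called. irf8 fell by 1.51 (limma, adjusted p = 0.0362) and ptpn6 by 1.84 (0.0176). stat3, another gene of the STAT family, rose by 1.00 (SE 0.166; limma, adjusted p = 0.0159), from 10.8, 8.06 and 11.4 CPM to 19.8, 20.3 and 23.2 CPM. It was at 17.0 and 14.8 CPM in controls, so that the single mutants lay below the controls and the double mutants. mxg, an Mx gene, rose by 1.86 (SE 0.371; limma, adjusted p = 0.039), from 0.406, 3.81 and 2.69 CPM in single mutants to 7.30, 10.4 and 11.65 CPM, with controls at 7.10 and 6.02 CPM. In the same comparison mxa and mxc, values given above, had lower means in double than in single mutants. Leaving out 1 library ended the calls of these genes in 3 of 6 cases for ptpn6, 4 of 6 for stat3 and for mxg, and 6 of 6 for irf8 (limma, highest adjusted p of 0.0914, 0.0559, 0.129 and 0.162). The call of mxg was also lost with pseudocounts of 0.1 and 0.5 and with edgeR on the recovered reads, with 5 of 9 settings other than leaving out 1 library keeping it. With control replicate 1 and single mutant replicate 3 both left out, none of the 81 genes was called in any of these comparisons.

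**Figure D3:**
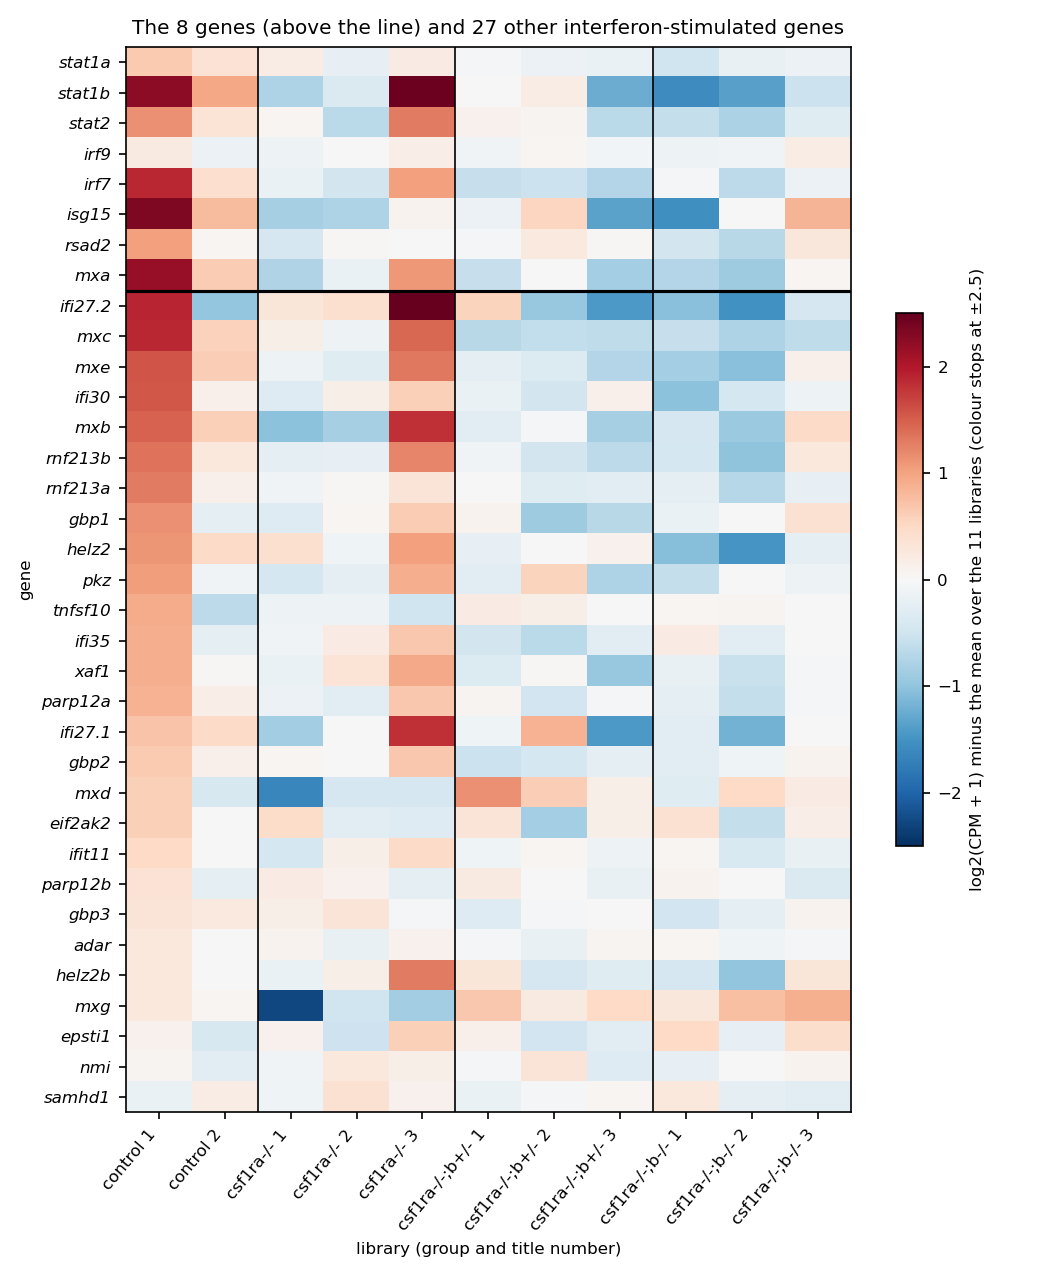
Log2(CPM + 1) minus the mean over the 11 libraries for the 8 interferon response genes (above the line) and 27 other interferon-stimulated genes (below it), with libraries in columns by genotype. Control replicate 1 is high over most rows, and single mutant replicate 3 is high for part of them.

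The 8 genes varied together over libraries, to different degrees. Pearson's r over the 11 libraries between a gene and the mean standardised level of the other 7 was 0.97 for mxa, 0.91 for stat1b, 0.86 for irf7, 0.85 for stat2, 0.81 for isg15, 0.79 for stat1a, 0.77 for rsad2 and 0.67 for irf9. These are descriptions, since the libraries differ in genotype and the genes share libraries. With control replicate 1 and single mutant replicate 3 left out, mxa at 0.88 and stat1b at 0.87 kept the highest values, while irf7 came to 0.39 and irf9 to 0.20. The members lie on 8 different chromosomes, none of them that of csf1ra or csf1rb, by RefSeq's annotation of GRCz12tu.

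The genes most alike in pattern to the mean of the 8, among 15924 genes with a mean of at least 2 CPM, were led by dhx58, which encodes a sensor of viral RNA, at r = 0.98 over the 11 libraries. dhx58 was at 21.0 and 7.02 CPM in controls, 2.51, 4.47 and 13.0 CPM in single mutants, 3.55, 4.67 and 1.62 CPM in csf1rb-heterozygous mutants and 1.59, 1.51 and 4.69 CPM in double mutants. Next was mxe, a further Mx gene, at r = 0.96, which was at 7.76 and 3.55 CPM in controls and 6.41 CPM in single mutant replicate 3, against 0.431 to 2.21 CPM in the other mutant libraries. The others were si:ch211-1a19.3 (r = 0.95), phf11 (0.94), cndp2 (0.94), si:dkey-85k7.12 (0.93), mov10b.1 (0.93) and si:ch211-24o10.6 (0.93). Without control replicate 1 and single mutant replicate 3, r was 0.95 for dhx58, 0.91 for mxe, 0.90 for phf11, 0.88 for mov10b.1 and 0.79 to 0.86 for the others.

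Markers of microglia and macrophages had a lower summed level than in both controls in every mutant library except single mutant replicate 3. The summed level of 22 of 26 such markers was 1183 and 719.6 CPM in controls, 552.5, 602.5 and 810.1 CPM in single mutants, 406.5 to 430.8 CPM in csf1rb-heterozygous mutants and 331.6 to 437.04 CPM in double mutants. Control replicate 1 had the highest sum and single mutant replicate 3 the second highest, as for the interferon genes. Control replicate 2 came next in both. Among the other mutant libraries the orders differed in part. Within double mutants the order was the same in both, from replicate 3 over 1 to 2. Replicate 2 led the csf1rb-heterozygous mutants in both, while their replicates 1 and 3 had opposite orders, as did single mutant replicates 1 and 2. Single mutant replicates 1 and 2 had interferon gene medians of -1.14 and -1.50. The double mutants, with lower marker sums, had -1.28, -1.55 and -0.89. No correlation between the markers and the interferon genes was computed. Of the 22 markers, 18 fell in double mutants against control, 9 in csf1rb-heterozygous mutants and 0 in single mutants (limma, adjusted p under 0.05), where 13 had an unadjusted p under 0.05. Over all genes 0.798%, 0.405% and 0.175% were called lower in the same order of groups, and 11.4% had an unadjusted p under 0.05 in single mutants. The 22 include the mutated genes, csf1ra and csf1rb, and irf8, which is also a pathway gene above. 3 genes, apoeb, cd74a and ctsba, held 63.5% of the sum, and the most markers at 0 in any library were 2, csf1ra and c1qa in double mutant replicate 2. The part of these markers in the levels of the 8 genes was not tested. In whole brain, fewer cells of a type and less RNA per cell cannot be told apart.

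Markers of other cells were compared in the same way. Endothelial markers summed to 187 to 230 CPM in controls, 170 to 219 CPM in single mutants, 151 to 210 CPM in csf1rb-heterozygous mutants and 112 to 208 CPM in double mutants, so the ranges of the sums overlapped. Of the 12 endothelial markers, 9 were below control by estimate in double mutants, with a median of -0.39. In double mutants 1 of these 12 and 1 of 9 neuron markers fell (limma, adjusted p under 0.05), where 0.798% of all genes were called lower. Red cell markers summed to 218 and 322 CPM in controls and 452 to 777 CPM in single mutants. They were at 287 to 440 CPM in csf1rb-heterozygous mutants, which overlapped the controls, and 338 to 495 CPM in double mutants. Of the 9 red cell markers, 0 were called against control in any mutant group. Against single mutants, 2 fell in csf1rb-heterozygous and 1 in double mutants, where 0.187% and 0.943% of all genes were called. Neutrophil markers were at 10.6 and 11.7 CPM in controls and 13.0 to 21.1 CPM in mutants. For lymphocytes, 2 of 15 T and NK cell markers were listed, at 6.24 and 5.86 CPM in sum in controls. They were at 6.41, 5.57 and 8.08 CPM in single mutants, with replicate 3 the highest library of all, and at 4.06 to 5.39 CPM in the 6 libraries with a csf1rb mutation, all below the controls. Of 6 B cell markers, 1, ighv1-4, was listed, at 0.231 and 1.12 CPM in controls, up to 19.4 CPM in single mutant replicate 3 and 40.2 CPM in double mutant replicate 3. The part of these cells in the results was not tested.

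**Figure D4:**
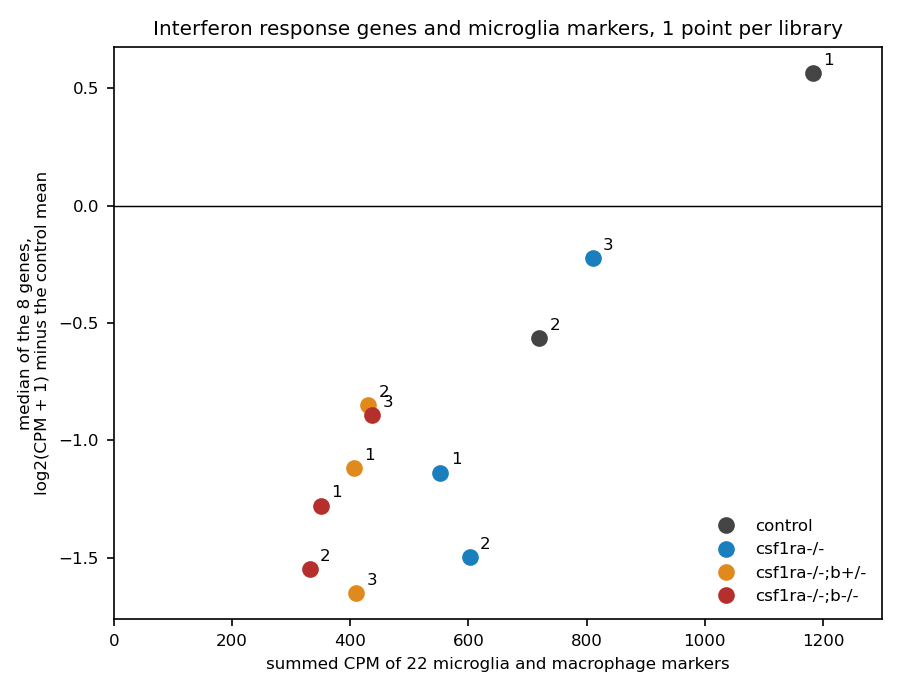
Median of the 8 interferon response genes, as log2(CPM + 1) minus the control mean, against the summed CPM of 22 microglia and macrophage markers, 1 point per library and colours by genotype. Control replicate 1 is at the upper right (1183 CPM and 0.57), and the 6 libraries with a csf1rb mutation lie at 331.6 to 437.04 CPM and below -0.8.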

How the data were processed

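Whole-brain RNA was sequenced as single-end reads of 50 nucleotides in 11 libraries, and the submitters' processing notes name HISAT2, edgeR and GRCz10. Versions, and how reads were counted per gene, strand and shared reads included, were not given in the sources used here. Values of the deposited signal are CPM, scaled by the authors with a factor per library (0.963 to 1.04), per the file headers and the values. All values (100.0%) were whole multiples of 1 read within 0.001 reads, so reads were recovered. Low genes had been removed before deposit: each row is above 1 CPM in 3 or more libraries. The authors' deposited log2 fold changes and false discovery rates (adjusted p-values) were copied only where named.

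Genes were compared by limma 3.58.1 (R 4.3.3), trend option on, using log2(CPM + 1) of all 4 groups in 1 fit, with Benjamini-Hochberg adjustment over 16536 genes, and called at an adjusted p under 0.05. Intervals are 95% limma intervals. Because separate fish are not stated, p-values measure the spread between these libraries, possibly technical. The steps were tested on simulated counts with the same dispersion for every gene and no outlying library. That run cannot show how they perform for genes as variable between libraries as these. Alternatives were pseudocounts of 0.1 and 0.5, a filter of 2 CPM, no TMM scaling, edgeR 4.0.16 and DESeq2 1.42.0 on recovered reads, replicate blocks and libraries left out. Members and gene lists were chosen with earlier results of these data known. Named besides the members were csf1ra, csf1rb, called list genes (or the 2 most abundant where a list had no call) and the 8 genes most alike in pattern. mxc, rnf213a and, in the closing section, mhc1uba and genes split by number were named after their values were seen.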

Additional observations from a re-analysis of the deposited data

How the results depend on the processing

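The members' median difference kept its direction against control under every alternative run, from -1.46 to -0.29 in single mutants, -1.91 to -0.77 in csf1rb-heterozygous mutants and -1.95 to -0.80 in double mutants with 1 library left out. The count of members called in double mutants was 1, and 3 by DESeq2 (stat1a 0.000205, mxa 0.025 and irf7 0.0338 as adjusted p). It was 0 with control replicate 1 and single mutant replicate 3 both left out (a setting chosen after seeing the data) and 0 to 1 with 1 library of the compared groups left out. Without single mutant replicate 3, which is outside that comparison, stat1b passed the test in double mutants (limma, adjusted p = 0.032). In csf1rb-heterozygous mutants the count of members called was 0, and 3 by DESeq2 (stat1a 0.00667, irf7 0.00365 and mxa 0.0353). For the 3 mutant groups averaged it was 1, and 3 by DESeq2, 0 with a pseudocount of 0.1, the 2 CPM filter, no TMM scaling, the replicate block by description number, or both libraries left out, and 0 to 1 with 1 library left out. edgeR called stat1a alone, in double mutants (adjusted p = 0.0276) and in the average (0.0361). DESeq2 called 285, 528 and 621 of all genes in single, csf1rb-heterozygous and double mutants against control, where limma called 78, 111 and 192. The cause was not tested.

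Replicate numbers were not taken to pair the libraries in the main fit, and the labels do not say what the numbers stand for. Deviations from group means were correlated for 15 pairs of libraries with like numbers. Pearson's r was 0.025 to 0.64 by title number (8 pairs over 0.1) and -0.013 to 0.64 by description number (9 pairs over 0.1). Pairs with unlike numbers were not compared, so these values cannot decide whether libraries are paired. Under a replicate block stat1a in double mutants had an adjusted p of 0.0247 by title number and 0.0426 by description number, and all-gene calls against control were 114, 147 and 322 by title and 136, 117 and 250 by description.

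Estimates that changed sign were small or between mutants, and none was called. With both libraries left out, irf9 was at 0.10, 0.11 and 0.14 in single, csf1rb-heterozygous and double mutants and 0.12 in the average, rsad2 at 0.0198 in csf1rb-heterozygous mutants, stat1b at 0.21, stat2 at 0.15 and irf9 at 0.0157 in csf1rb-heterozygous minus single mutants, and irf9 at 0.0404 and irf7 at 0.0257 in double minus single mutants. Without TMM scaling the last irf9 value was 0.0088. With 1 library left out, irf9 ranged from -0.20 to 0.17, -0.26 to 0.11 and -0.24 to 0.14 in the 3 mutant groups and -0.23 to 0.14 in the average, and rsad2 from -0.97 to 0.0198 in csf1rb-heterozygous mutants. In csf1rb-heterozygous minus single mutants the ranges were -1.40 to 0.21 for stat1b, -0.84 to 0.15 for stat2, -0.13 to 0.0157 for irf9 and -0.24 to 0.69 for isg15. In double minus single mutants they were -0.14 to 0.0404 for irf9, -0.71 to 0.0257 for irf7, -0.45 to 0.0421 for rsad2 and -0.27 to 0.92 for isg15. In double minus csf1rb-heterozygous mutants they were -0.34 to 0.19 for mxa, -0.45 to 0.74 for isg15 and -0.0768 to 0.0838 for irf9. The depth allows 5 reads for mxa in its lowest library, so its level there is imprecise, and 2 controls limit every comparison.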

Other observations

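mhc1uba, an MHC class I gene of the peptide loading list, was nearly all present or absent. It was at 56.8 and 61.6 CPM in controls, 106 and 114 CPM in single mutant replicates 1 and 3, and at 0 in single mutant replicate 2, which allows up to 0.22 CPM. In the 6 libraries with a csf1rb mutation it was at 0 to 0.418 CPM. mhc1uba too passed the submitters' filter on low values only through libraries without a csf1rb mutation. The difference of double mutants from control did not pass the test (limma, adjusted p = 0.0976).

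The 3 libraries numbered 2 in their descriptions, all mutants of different genotype, were lower than the other 8 libraries for 7 of the 81 pathway genes (8.64%) and higher for 0, where 7.63% of all genes were lower and 4.15% higher, so the share is near that of all genes. tyk2, a kinase of interferon receptors, was at 9.48 to 16.3 CPM in them and 22.8 to 30.3 CPM in the others, and tlr7, a sensor of RNA, at 9.13 to 18.3 CPM and 20.8 to 31.6 CPM. The others were tap1, stat5a, stat5b, adar and parp12a. None of the 8 interferon response genes was split in this way.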
